A study of Mus musculus with 18 samples.

Results

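The 10 genes described here encode 7 ADAM proteins of the male germ line (Adam1a, Adam1b, Adam2, Adam3, Adam5, Adam18 and Adam32) and 3 chaperones of the endoplasmic reticulum (Clgn, Calr3 and Pdilt). They were chosen by gene symbol, and all 10 were found among the 47236 symbols listed in all 18 libraries. The libraries hold poly(A) RNA of male C57BL/6J mice that carry 1 or no intact allele of Zfp541, a zinc-finger protein gene of male germ cells. The 6 groups were testis at postnatal day 14 (P14), testis at P18 and spermatocytes isolated at P18, each from heterozygotes (Zfp541+/-, here Het) and from knockouts (Zfp541-/-, here KO), with 3 libraries a group. No wild-type group was included, so every control animal also lacked 1 copy. The series describes the 3 libraries of a group as biological replicates. How the spermatocytes were isolated, and which part of Zfp541 is deleted, are not given in the sources used here.

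ADAM proteins are membrane-anchored members of the metalloprotease and disintegrin family. Those of the testis are made in spermatocytes and spermatids and are carried to the sperm surface. ADAM1 (ADAM1A or ADAM1B) pairs with ADAM2 in the endoplasmic reticulum. The pairing needs calmegin, the Clgn product. ADAM3, which sperm need to pass from the uterus into the oviduct and to bind the zona pellucida, is lost from sperm of mice without ADAM1A, ADAM2, calmegin, calsperin (the Calr3 product) or PDILT.

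Zfp541 itself was lower in the KO libraries of each set. Its level (RPKM or FPKM, that is reads or fragments per kilobase of gene, corrected for library size and rescaled between the libraries of a set) was 8.67 ± 0.923 in Het and 4.03 ± 0.905 in KO testis at P14 (SD, n = 3). At P18 it was 25.2 ± 4.52 against 10.2 ± 1.05 in testis and 43.6 ± 12.6 against 12.2 ± 1.00 in isolated spermatocytes. The Zfp541 difference passed the test in both P18 sets (adjusted p = 0.0049 and 0.000791, limma) but not at P14 (adjusted p = 0.0783). The libraries held 17960000 to 21120000 reads at P14, 12810000 to 16950000 in P18 testis and 9260000 to 18310000 in spermatocytes (rounded). The isolated spermatocytes had less Sertoli and Leydig cell RNA than whole testis. Summed levels of 10 Sertoli cell markers were 18 to 55.6 in spermatocytes against 795 to 1060 in P18 testis, and those of 8 Leydig cell markers were 4.08 to 6.57 against 181 to 251. Summed markers of myoid and endothelial cells were not lower there (51.7 to 149 in Het and 41.8 to 161 in KO, against 88.3 to 133 in P18 testis). That sum was mostly the myoid marker Acta2 (mean 72.2 in Het spermatocytes and 70.2 in Het testis). The endothelial markers of the list, Pecam1, Cdh5, Kdr and Tek, had lower means in spermatocytes in both genotypes (Cdh5 0.841 against 3.44 in Het). Summed macrophage markers were 13.9 to 26.9 against 49.8 to 62.1. In Het spermatocytes that sum was mostly Fcgr3 (mean 14.8, with a mean sum of 23.8). Fcgr3 was not lower there than in Het testis (12.1), and its mean in KO spermatocytes was 0.526. The part of these cells in the results was not tested.

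The members lie at 5 places in the genome (GRCm38). Adam18 (chr8:24602246-24674755), Adam3 (chr8:24677225-24725852), Adam5 (chr8:24727093-24824369) and Adam32 (chr8:24836140-24948804) follow each other on the minus strand. The gaps between them are 2470, 1241 and 11771 bp. Clgn (chr8:83389867-83428552, plus strand) and Calr3 (chr8:72424176-72443870, minus strand) are elsewhere on chromosome 8. Adam2 is at chr14:66027329-66077733 and Pdilt at chr7:119486587-119523489, both on the minus strand. Adam1b (chr5:121500098-121503435) consists of 1 exon on the minus strand. Adam1a (chr5:121518576-121545482, minus strand) begins 15141 bp away from it.

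Adam1a and Adam1b are copies of each other, and this bears on every value given for them. Their coding sequences (2376 and 2421 bases) are 84.2% identical over 2221 aligned bases and share a run of 1082 identical bases. Of all 50-base stretches of Adam1b, 32.41% also occur in another gene, Adam1a. For Adam1a the share is 77.76%, which includes the stretches shared with Adam1b. Its longer transcript model also shares exons with Gm42878 (4779 bp) and Mapkapk5 (1805 bp), and 848 bp overlap exons of Tmem116 on the other strand. The stretch below shows how the pair differ where they differ most. It is the 80-base ungapped stretch of the coding alignment with the most differences (33), read from the GENCODE transcripts on GRCm38, 5′ to 3′ on the minus strand, and capitals mark the bases that differ. It covers coding positions 1598 to 1677 of Adam1a (chr5:121519552-121519631) and 1502 to 1581 of Adam1b (chr5:121501400-121501479).
Adam1a: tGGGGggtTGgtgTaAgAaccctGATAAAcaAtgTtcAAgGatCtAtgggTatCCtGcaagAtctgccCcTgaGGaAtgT
Adam1b: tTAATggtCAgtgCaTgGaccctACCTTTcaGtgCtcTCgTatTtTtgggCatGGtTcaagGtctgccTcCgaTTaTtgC

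Promoter windows from RefSeq (GRCm38.p6) matched 4 of the 10 members (Adam1a, Adam1b, Calr3 and Pdilt). The 250 bases before the start of Adam1b (chr5:121503436-121503685, minus strand) are printed 5′ to 3′. Adam1b was chosen as the copy that passed the test between genotypes at P18. Capitals mark the core letters of the MYB motif (AACNG, on either strand), the family to which the meiotic regulator MYBL1 belongs.
Adam1b promoter: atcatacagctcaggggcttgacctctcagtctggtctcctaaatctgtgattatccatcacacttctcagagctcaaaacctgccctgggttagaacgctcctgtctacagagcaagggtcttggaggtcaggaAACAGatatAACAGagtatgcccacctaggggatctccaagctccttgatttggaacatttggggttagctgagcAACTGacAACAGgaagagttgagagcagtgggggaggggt

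The window holds 4 such matches, and 74.19% of 32851 promoter windows of this length hold at least 1. None of the other motifs searched on both strands was found in it. These were TATAAA (in 12.37% of all windows), CCAAT (33.85%), TGACGTNA (2.52%), GTTGCC (10.43%) and GGGCGG (32.74%), so none overlaps the MYB matches. It holds 1 CpG, against a median of 6 over all windows.

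In P18 testis, 7 of the 9 members that could be tested were lower in KO: Adam1b, Adam2, Adam3, Adam5, Adam18, Adam32 and Clgn. None was higher, and at an unadjusted p under 0.05 Calr3 alone was, beside 16.3% of all genes. The fall ranged from 4.18-fold for Clgn to 71.9-fold for Adam3. Adam1a and Calr3 did not pass the test, and Pdilt was too low to test. Over all 18786 genes tested in that comparison, 17.2% were called lower and 5.84% higher. Genes were tested when they had a value of 1 in at least 3 libraries. Adam1b, Adam3 and Adam18 had that in the Het libraries alone, in testis and in spermatocytes, so a test of them could only give a fall, and the count of members lower is a description. Because whole testis was used, fewer cells of a type and less RNA per cell cannot be told apart.

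The largest difference was that of Adam3, the protein needed on sperm for entry into the oviduct. Its levels in P18 testis were 64.3, 37.6 and 20.8 in the 3 Het libraries and 0.489, 0.68 and 0.536 in the 3 KO libraries. The groups lay far apart, although the Het libraries themselves differed 3.09-fold. Adam3 changed by -5.14 ± 0.38 on the log2(level + 0.5) scale (SE, adjusted p = 0.00419). In spermatocytes the Het levels were 44.2, 45.4 and 125 and the KO levels 0.106, 0.496 and 0.361, a ratio of means of 222. Only 37 reads in all supported the 3 KO values there, against 8705 in Het.

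**Figure D1:**
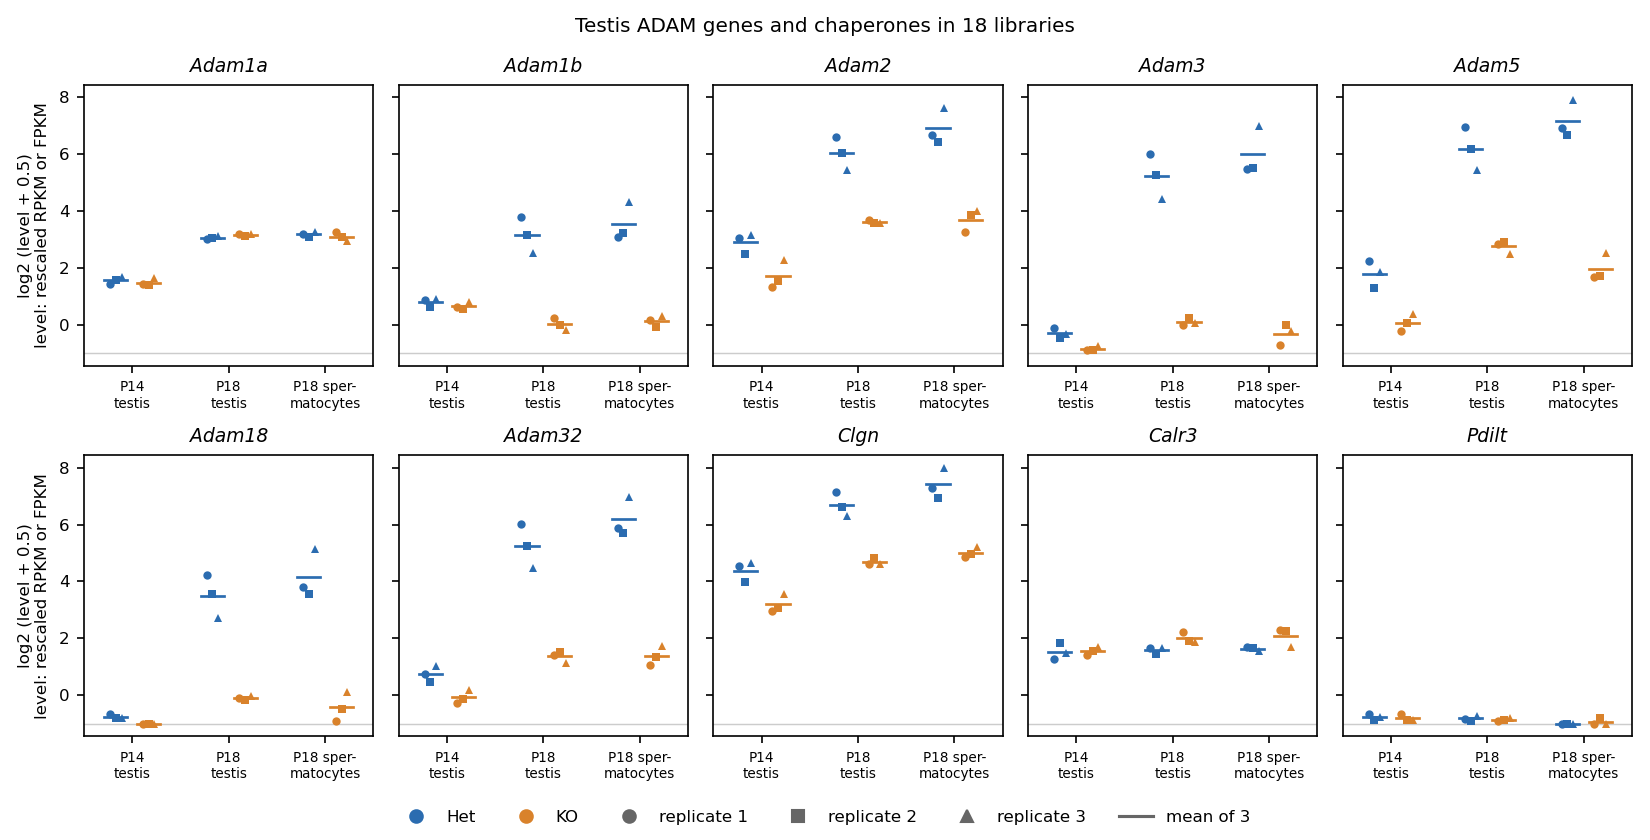
Level of each of the 10 genes in every library, on the log2(level + 0.5) scale, in 3 sample sets; points are libraries, shapes replicate numbers and bars the mean of 3. Adam1b, Adam2, Adam3, Adam5, Adam18, Adam32 and Clgn separate by genotype at P18, Adam1a and Calr3 lie close together, and Pdilt sits at the floor (grey line, level 0); values of Adam1a and Adam2 at P14 rest on other gene lengths than at P18.

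The other genes of the chromosome 8 cluster moved with it. ADAM5 and ADAM3 form a complex on mouse sperm, and ADAM18 and ADAM32 are further testis members of the family. Adam5 had levels of 124, 72.6 and 42.7 in Het and 6.71, 7.02 and 5.16 in KO testis at P18. The KO libraries thus kept 7.89% of the Het mean, the largest share in the cluster. Adam18 went from 18.2, 11.3 and 6.08 to 0.426, 0.388 and 0.477, or 3.63% of the Het mean. Adam32 went from 64.8, 37.6 and 21.5 to 2.19, 2.39 and 1.68, or 5.05%. None of these groups overlapped, and the log2 differences were -3.44 ± 0.37, -3.61 ± 0.36 and -3.89 ± 0.38 (SE, adjusted p = 0.00473, 0.00425 and 0.00419).

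In spermatocytes the cluster fell again. Adam5 levels were 121, 101 and 241 in Het and 2.67, 2.74 and 5.24 in KO (log2 difference -5.21 ± 0.36, adjusted p = 0.000129). Those of Adam18 were 13.4, 11.4 and 34.9 against 0.033, 0.218 and 0.591 (-4.59 ± 0.45, adjusted p = 0.000401). Adam18 in KO rested on 1, 6 and 21 reads, so its KO level is known only roughly. Adam32 had 58.5, 51.6 and 125 against 1.59, 2.01 and 2.84 (-4.81 ± 0.34, adjusted p = 0.000132). Every Het library of the 4 cluster genes was above every KO library.

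Of the nearest genes on either side, Adam9 alone could be tested. Adam9, a widely expressed ADAM gene, lies 807 bp from Adam32 on the same strand. Its mean level rose from 15.7 ± 1.01 in Het to 19.7 ± 0.743 in KO testis at P18 (SD, n = 3), a log2 difference of 0.32 ± 0.07 (SE, adjusted p = 0.0228). In spermatocytes it was 11.5 ± 2.09 and 13.4 ± 3.26, which did not pass (adjusted p = 0.455). The rise in testis lost its call in 5 of the 15 alternative settings. On the other side Ido1, 5237 bp from Adam18, and Ido2 had mean levels under 0.09 in every group and were not tested. Tm2d2, beyond Adam9, went from 26.0 ± 5.34 to 17.8 ± 0.754 in spermatocytes (log2 difference -0.51, adjusted p = 0.0358).

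**Figure D2:**
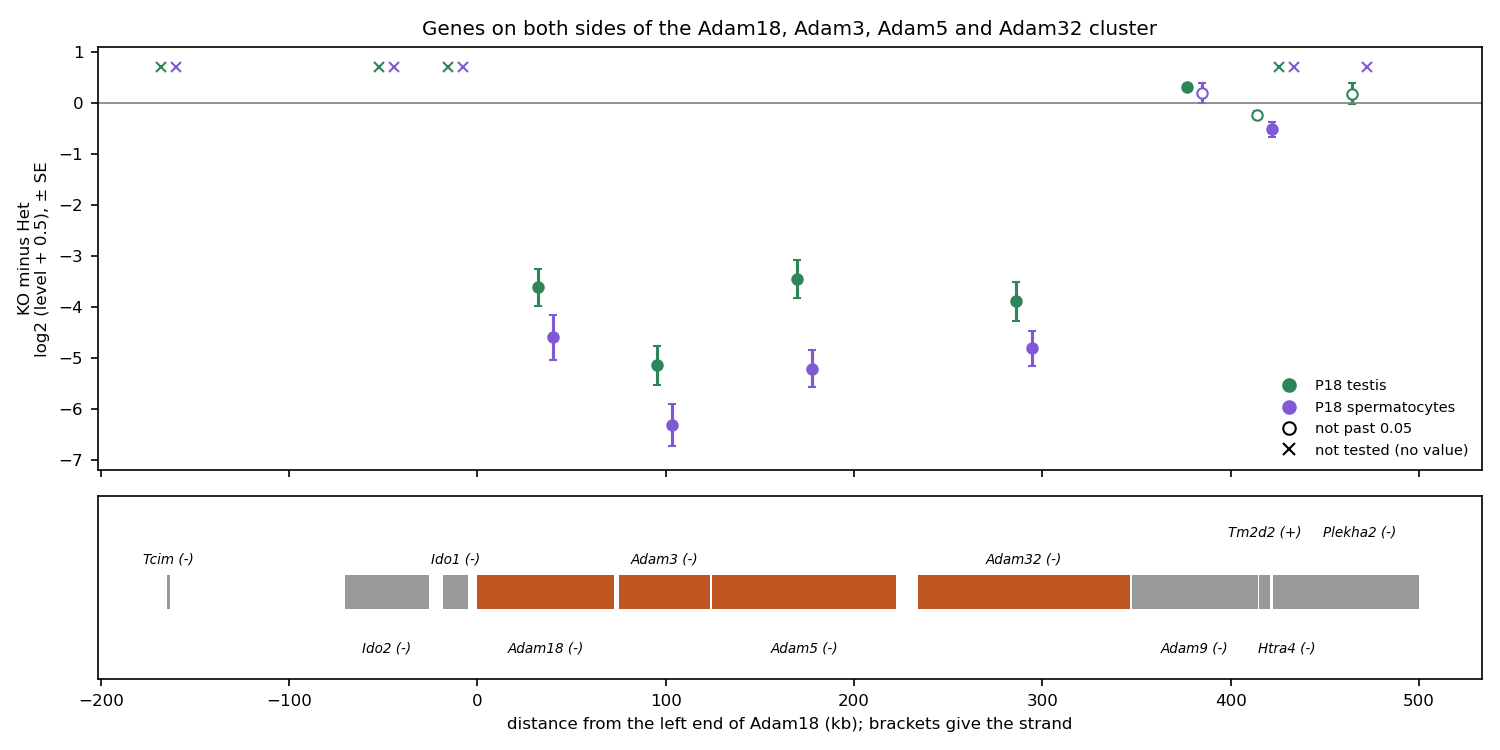
Difference between KO and Het (log2, ± SE) of the ADAM cluster on chromosome 8 and its protein-coding neighbours from Tcim to Plekha2 in P18 testis and spermatocytes, above a map of the genes by distance from the left end of Adam18. The 4 cluster genes lie between -3.44 and -6.30, and Adam9, which adjoins Adam32, is at 0.32 and 0.21.

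Adam2, the common partner of both ADAM1 proteins, lies on another chromosome and also fell. Its levels in P18 testis were 97.4, 64.4 and 43.0 in Het and 12.3, 11.3 and 11.3 in KO. The lowest Het library was still above all KO libraries, and the log2 difference was -2.43 ± 0.28 (SE, adjusted p = 0.00505). In spermatocytes they were 102, 86.0 and 197 against 8.96, 13.9 and 15.4, with a log2 difference of -3.22 ± 0.33 (adjusted p = 0.000503). With a KO mean of 11.6 in testis and 12.7 in spermatocytes, Adam2 was the most abundant ADAM member in KO.

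Of the ADAM1 copies, Adam1b alone passed the test at P18. ADAM1A stays in the endoplasmic reticulum and ADAM1B reaches the sperm surface, each with ADAM2. Adam1b levels in P18 testis were 13.2, 8.48 and 5.22 in Het and 0.668, 0.497 and 0.383 in KO, a 17.4-fold ratio of means (log2 difference -3.14 ± 0.32, SE, adjusted p = 0.00439). In spermatocytes they were 8.01, 8.90 and 19.5 against 0.631, 0.437 and 0.736 (-3.42 ± 0.33, adjusted p = 0.000384). Adam1b thus fell to 5.75% and 4.96% of the Het mean.

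Adam1a levels were 7.60, 7.71 and 8.18 in Het and 8.55, 8.26 and 8.65 in KO testis at P18. The KO libraries were all slightly above, by 0.11 on the log2 scale (95% confidence interval -0.04 to 0.26, adjusted p = 0.238). In spermatocytes they were 8.71, 7.94 and 9.02 against 8.99, 7.89 and 7.25 and overlapped (-0.09, interval -0.37 to 0.19). These Adam1a values are uncertain because of the shared exons described above. The genes that share them on the same strand gave small differences too. Gm42878 was at 0.07 in P18 testis and -0.09 in spermatocytes, and Mapkapk5 at 0.10 and -0.08, none past the test. Tmem116, which overlaps Adam1a exons on the other strand, was lower in KO spermatocytes (-0.67, adjusted p = 0.0154, limma). In P18 testis Tmem116 was at -0.25 and did not pass (adjusted p = 0.0693). How the authors assigned reads that fall on both genes is not given in the sources used here, so the difference between the Adam1 copies was not tested further.

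Of the chaperones, Clgn alone fell. It had the highest level of the 10 genes in every group. In P18 testis its levels were 141, 98.2 and 77.6 in Het and 24.1, 27.7 and 23.8 in KO. The KO mean was 23.9% of the Het mean, the mildest of the 7 falls, with a log2 difference of -2.00 ± 0.21 (SE, adjusted p = 0.00461). In spermatocytes they were 157, 123 and 255 against 28.2, 30.4 and 36.2, or 17.7% (-2.42 ± 0.26, adjusted p = 0.000572). Mgat4d, the protein-coding gene 7547 bp from Clgn on the same strand, was also lower in KO (-2.48 and -3.74, adjusted p = 0.0057 and 0.000289). Scoc, 1532 bp away on the other strand, was at 9.14 and 9.09 in P18 testis.

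Calr3 was low in all groups and did not fall. Its levels in P18 testis were 2.64, 2.21 and 2.67 in Het and 4.18, 3.26 and 3.14 in KO. All KO libraries were above all Het libraries, which was so for 21.9% of genes, yet the log2 difference of 0.42 ± 0.14 (SE) missed the threshold (adjusted p = 0.0735). In spermatocytes they were 2.75, 2.68 and 2.42 against 4.45, 4.25 and 2.74, with overlapping groups (0.45 ± 0.19, adjusted p = 0.116). Between 49 and 114 reads lay behind each P18 value of Calr3. The difference passed with values as deposited in both sets (adjusted p = 0.0404 and 0.0357). It also passed in spermatocytes in the fit over 18 libraries (0.0144) and without KO replicate 3 (0.0406).

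Pdilt, a testis relative of protein disulfide isomerase that works with calsperin, was close to the limit of detection. It had 1 to 4 reads in each of the P18 testis libraries and 2 to 6 in those of P14. Part of Pdilt overlaps an exon of Acsm5 on the other strand (104 bp). In spermatocytes 2 reads were seen in KO replicate 2 and none in the other 5 libraries. At this depth no difference between genotypes was detectable.

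**Figure D3:**
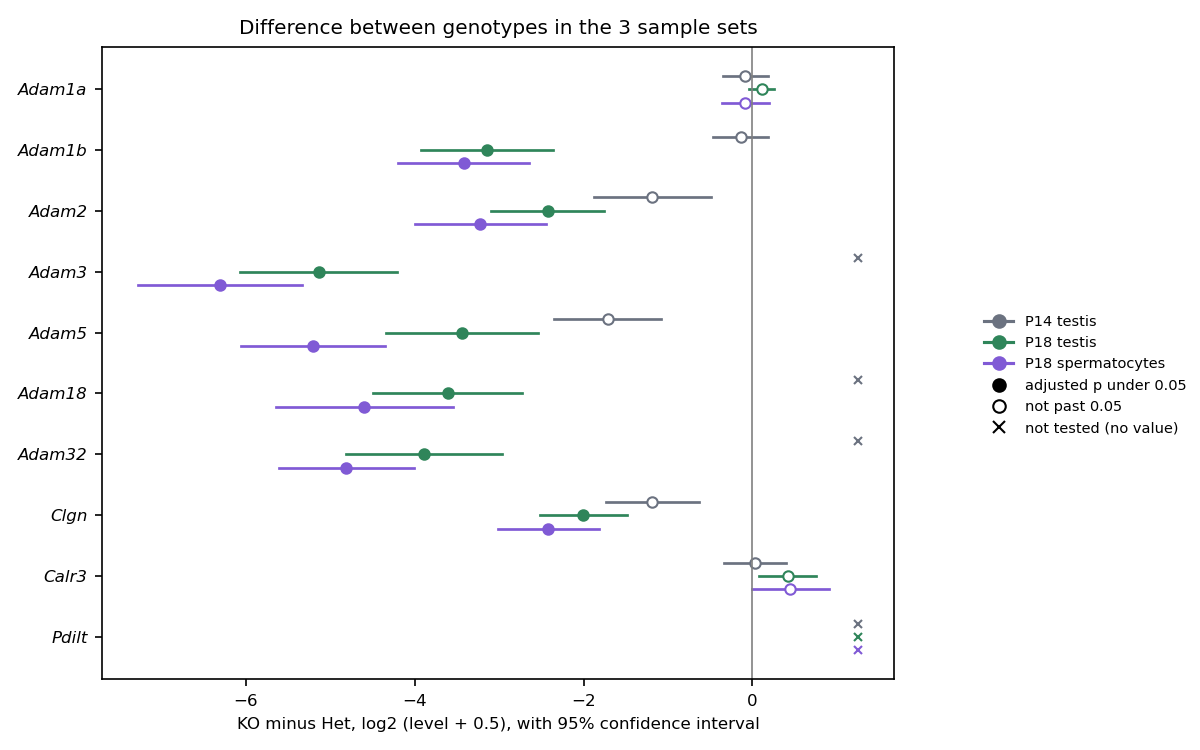
KO minus Het on the log2(level + 0.5) scale with 95% confidence intervals for each gene in the 3 sample sets; filled points passed an adjusted p of 0.05, open points did not, and crosses at the right edge mark genes not tested. The filled points are the same 7 genes in P18 testis (-2.00 to -5.14) and in spermatocytes (-2.42 to -6.30), and no P14 point is filled.

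In spermatocytes as a whole, 7 of the 9 members tested were lower, and these were the 7 of P18 testis. The background was 25.4% of 15960 genes called lower and 9.33% higher. None was higher by limma or voom or at an unadjusted p under 0.05, beside 15.3% of genes at that p. No member had every KO library above every Het library there, which 20.2% of genes had. In both P18 sets the 7 genes had every KO library below every Het library, which was so for 26.2% of the genes tested in testis and 32.3% in spermatocytes. All 7 calls held in each set without any 1 library and in the other alternative settings. The difference between the responses in the 2 fractions was tested as an interaction and passed for none of 9 members by limma, beside 1.23% of 19979 genes called lower and 0.0651% higher. Adam5 came nearest, with -1.82 ± 0.56 (SE, adjusted p = 0.149), and was the only member at an unadjusted p under 0.05. None was called by voom on recovered reads. Fraction cannot be told apart from the processing of the tables, which are in RPKM for spermatocytes and FPKM for P18 testis.

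The spread among the Het libraries was shared by these genes. In P18 testis replicate 1 was highest and replicate 3 lowest for each of the 7 genes, with a spread of 1.82-fold for Clgn to 3.09-fold for Adam3. In spermatocytes replicate 3 was highest for each of them, with a spread of 2.07-fold for Clgn to 3.05-fold for Adam18. The share of all genes with these orders was not computed, so they are a description. The summed level of 10 pachytene markers was highest in the same libraries, at 1310, 885 and 610 in Het testis replicates 1, 2 and 3 and 1480, 1200 and 2510 in Het spermatocytes. In KO the sum was 187 to 200 in testis and 178 to 219 in spermatocytes. All 10 pachytene markers were lower in KO in both P18 sets. Pgk2, Ccna1 and Spata16 had values of 1 in the Het libraries alone in both sets, and Hist1h1t did in testis. Only a fall could be called for these, so the count is a description. Their log2 differences had a median of -2.22 in testis (range -4.85 to -0.50) and -2.46 in spermatocytes (-5.94 to -0.75). The values of Clgn and Adam2 lay near that median in testis and those of the 4 cluster genes and Adam1b below it. The part of pachytene cell content in the falls was not tested. Spermatogonial markers summed to 260 to 337 in Het and 423 to 499 in KO spermatocytes. Of the 10, 5 were called higher in KO and 1 lower, beside 9.33% of all genes higher and 25.4% lower. Id4 went the other way from the sum, with means of 22 in Het and 5.79 in KO. The part of these cells was not tested either.

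At P14 none of the 6 members that could be tested passed in either direction by limma or by voom on recovered reads. The background was small as well: 0.153% of 17688 genes were called lower and 0.0113% higher. At an unadjusted p under 0.05, 3 members were lower, beside 6.22% of all genes, and none was higher, beside 2.7%. These were Adam2, Adam5 and Clgn, and they also had every KO library below every Het library, which was so for 8.84% of the genes tested. Adam5 had values of 1 in the Het libraries alone, so its test could only give a fall and its part in these counts is a description.

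Clgn had levels of 22.6, 15.2 and 24.5 in Het and 7.32, 7.78 and 11.4 in KO at P14 (log2 difference -1.18 ± 0.23, SE, adjusted p = 0.143). For Adam2 they were 7.81, 5.12 and 8.34 against 1.98, 2.42 and 4.33 (-1.19 ± 0.29, adjusted p = 0.258). For Adam5 they were 4.25, 1.93 and 3.08 against 0.366, 0.547 and 0.786 (-1.72 ± 0.27, adjusted p = 0.0866). Adam5 passed only when Het replicate 2 was left out (adjusted p = 0.0486). The summed pachytene markers were 116 to 153 in Het and 59.7 to 85.2 in KO at this age, and their part was not tested.

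Adam3, Adam18 and Adam32 fell under the filter on low values at P14 described above, so only their values are given. Adam3 had 24, 12 and 17 reads in Het and 2, 2 and 5 in KO. Adam18 had 6, 3 and 3 reads in Het and none in KO, so that its level was at least 4.23-fold lower if 3 reads over the KO group are taken as the floor. Adam32 had 66, 47 and 88 reads against 20, 24 and 36. Every KO library was below every Het library in all 3 genes. The share of genes under the filter with that order was not computed, so this is a description. With no filter none of the 3 passed (adjusted p = 0.24, 0.309 and 0.294).

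The ADAM1 copies and Calr3 showed no such separation at P14. Adam1b had 1.32, 1.03 and 1.38 in Het and 1.03, 0.98 and 1.24 in KO (log2 difference -0.14, 95% confidence interval -0.46 to 0.19). Adam1a had 2.16, 2.5 and 2.72 against 2.20, 2.11 and 2.58, and Calr3 1.93, 3.08 and 2.29 against 2.19, 2.46 and 2.75. The groups overlapped in each.

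Whether the genotype difference grew between the ages was tested as an interaction in testis. It was larger at P18 for 4 of 9 members: Adam1b (-2.95 ± 0.37, SE, adjusted p = 0.00359), Adam3 (-4.48 ± 0.45, 0.00267), Adam18 (-3.29 ± 0.42, 0.00376) and Adam32 (-3.02 ± 0.47, 0.00751). Adam3 and Adam18 entered this test through the P18 Het libraries alone, which fixed the direction, so their values are a description. The background was 5.54% of 19548 genes lower and 0.506% higher. For Adam2 (-1.23), Adam5 (-1.68) and Clgn (-0.81) it did not pass (adjusted p = 0.132, 0.08 and 0.189). The pseudocount of 0.5 shrinks differences between low values, as those of Adam3, Adam18 and Adam32 at P14 were. By voom on recovered reads, which adds 0.5 to the reads and not to the level, none of the 4 passed (adjusted p = 0.0723 for Adam1b, 0.497, 0.813 and 0.296 for the others). All 4 passed in the other 20 settings tried. On the plain scale, the Het mean of Adam1b was 1.15 times the KO mean at P14 and 17.4 times at P18, and that of Adam3 6.13 and 71.9 times.

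Age and processing set cannot be told apart, since the P14 and P18 testis tables use different units and gene models. Adam1a and Adam2 had different gene lengths in them and were left out of the comparisons of P18 with P14, though not out of the interaction. In Het, 6 of the 7 members compared were higher at P18: Adam3 by 5.36 ± 0.32 on the log2 scale (SE), Adam32 by 4.31 ± 0.33, Adam5 by 4.19 ± 0.36, Adam18 by 4.13 ± 0.30, Adam1b by 2.17 ± 0.26 and Clgn by 2.07 ± 0.25 (adjusted p from 1.01e-07 to 3.78e-05). Adam3 and Adam18 had values of 1 in the P18 libraries alone and could only come out higher. Over all 16909 genes, 29.6% were called higher and 33.2% lower. Calr3 was at -0.14 ± 0.16 (adjusted p = 0.45).

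In KO the same comparison gave smaller rises. Adam5 rose by 2.51 ± 0.36, Adam32 by 1.29 ± 0.33 and Clgn by 1.26 ± 0.25 (SE, adjusted p = 0.000208, 0.00934 and 0.00178). Adam3 (mean level 0.0523 at P14 and 0.568 at P18) and Adam18 (0 and 0.43) lay under the filter in both KO groups and were in the fit only through Het, so their differences (0.88 and 0.84), past the threshold in 7 of 22 alternatives each, are not read as rises. Adam1b was lower at P18, by -0.78 ± 0.26 (adjusted p = 0.0324), a call kept in 13 of 22 alternatives, among them none of those without 1 P14 KO library. The background was 20.1% of genes called higher and 25.8% lower.

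Isolated spermatocytes were compared with whole testis at P18, where fraction and processing of the tables cannot be told apart. In Het, 4 of 9 members were higher in spermatocytes, beside 27% of 19979 genes higher and 31.8% lower: Adam5 by 1.07 ± 0.40, Adam32 by 1.04 ± 0.39, Adam2 by 0.99 ± 0.33 and Clgn by 0.83 ± 0.25 (SE, adjusted p = 0.0373, 0.0386, 0.0238 and 0.0146). All 4 lost their call without testis replicate 3 of Het (0.73, 0.68, 0.73 and 0.67, adjusted p from 0.0605 to 0.154). Adam2, Adam5 and Adam32 also lost it without testis replicate 2 and without spermatocyte replicate 3 of Het. In KO no member passed by limma, and none at an unadjusted p under 0.05 or by voom, beside 22.9% of genes called higher and 38.7% lower.

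The order of the levels, which are per kilobase and so can be compared between genes, was similar in the Het groups of P18. In testis Clgn (106 ± 32.3, SD, n = 3) was followed by Adam5 (79.7 ± 41.1), Adam2 (68.3 ± 27.4), Adam32 (41.3 ± 21.9), Adam3 (40.9 ± 21.9), Adam18 (11.9 ± 6.09), Adam1b (8.97 ± 4.02), Adam1a (7.83 ± 0.303), Calr3 (2.5 ± 0.26) and Pdilt (0.0662 ± 0.0393). The ranges of neighbours over the 3 libraries overlapped from Clgn down to Adam3 and from Adam18 to Adam1a. The libraries share their spread, however, and within each of them Clgn was above Adam5, Adam2 above Adam32 and Adam18 above Adam1b. In KO testis Clgn (25.2), Adam2 (11.6), Adam1a (8.49), Adam5 (6.29) and Calr3 (3.53) led, and Adam3 (0.568), Adam1b (0.516) and Adam18 (0.43) were close to each other. The place of Adam1a in both orders is uncertain, since 77.76% of its 50-base stretches also occur in other genes.

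The broadly expressed relatives of the chaperones remained abundant. Calnexin (Canx), the relative of calmegin, was at 101 ± 2.71 in Het and 90.3 ± 2.02 in KO testis at P18 (SD, n = 3, log2 difference -0.16, adjusted p = 0.0675). It was at 136 ± 18.6 and 125 ± 9.57 in spermatocytes. Calreticulin (Calr) was at 343 ± 28.4 and 343 ± 13.8 in P18 testis, and Pdia3, a disulfide isomerase that works with both lectin chaperones, at 135 ± 6.13 and 138 ± 1.88. Levels of Clgn and Canx were thus close in Het testis (106 and 101), while in KO Clgn was at 25.2 beside 90.3 for Canx.

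**Figure D4:**
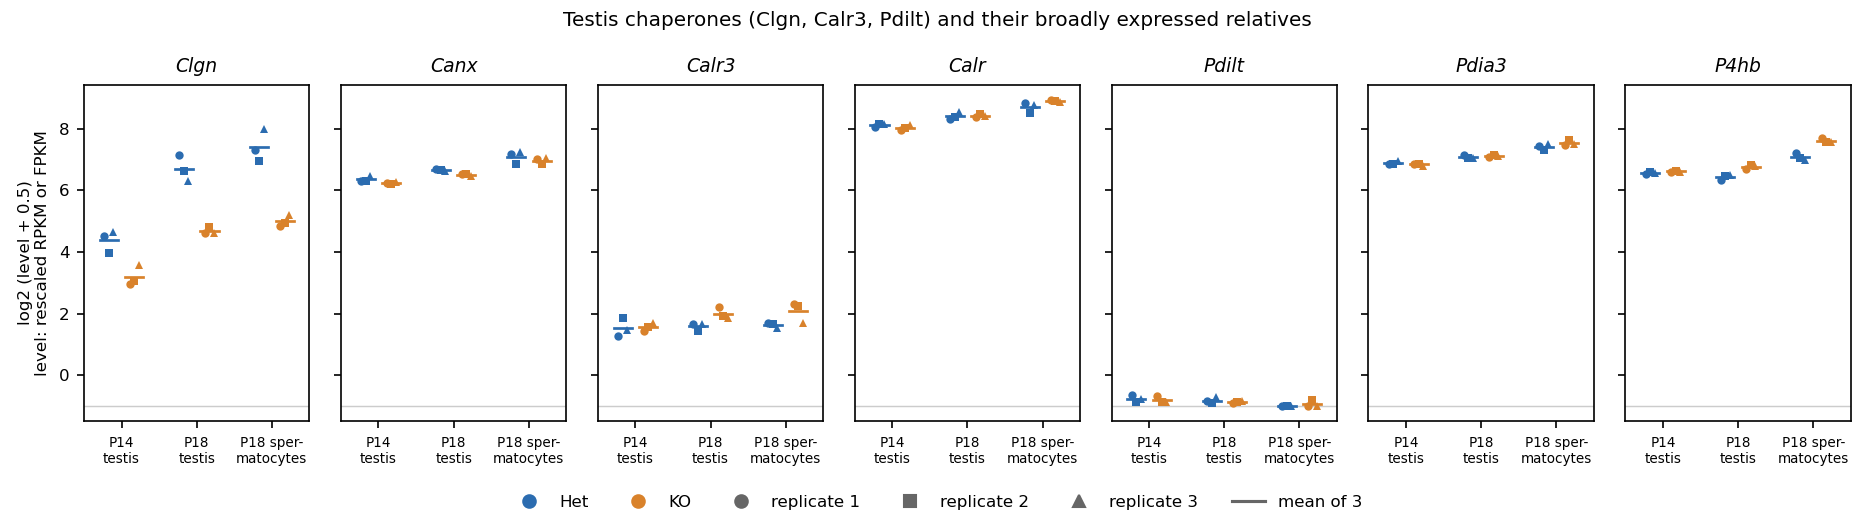
Levels of the testis chaperones Clgn, Calr3 and Pdilt and of their broadly expressed relatives Canx, Calr, Pdia3 and P4hb in all libraries, on the log2(level + 0.5) scale; points are libraries and bars the mean of 3. Clgn lies near Canx in Het at P18 and below it in KO, whereas Calr3 and Pdilt lie far below Calr and Pdia3 in all groups.

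Of 20 general folding genes of the endoplasmic reticulum, all tested, 4 rose and 3 fell in KO testis at P18 (median log2 difference 0.01), beside 5.84% of all genes higher and 17.2% lower. P4hb, the protein disulfide isomerase, rose by 0.34 ± 0.07 (SE, adjusted p = 0.0179) and Txndc5 by 0.39 ± 0.10 (0.039). The oxidase gene Ero1lb fell by 0.77 ± 0.15 (0.0185) and the cochaperone gene Sdf2l1 by 0.65 ± 0.14 (0.0242). Pdia4 (0.26), Uggt1 (0.23) and Hyou1 (-0.27) passed too. These small differences were not stable: without Het replicate 2 no rise and 1 fall remained in number, and without KO replicate 2 or 3 none of either, while without KO replicate 1 there was 1 rise and no fall. In spermatocytes 4 rose and 3 fell (median 0.10), beside 9.33% of all genes higher and 25.4% lower. P4hb rose by 0.52 ± 0.10 (adjusted p = 0.00615), Ero1lb fell by 1.19 ± 0.22 (0.00586) and Sdf2l1 by 1.00 ± 0.20 (0.00904). Ero1l (0.42), Pdia4 (0.41), Ganab (0.35) and Uggt2 (-0.87) passed as well. With values as deposited 9 rose, and the median of all genes then moved from -0.05 to 0.17. With 1 fit over 18 libraries 10 rose, without KO replicate 2 there were 2 and without KO replicate 3 there was 1.

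Another list held 12 genes whose loss in mice removes or impairs ADAM3 on sperm. In P18 testis 9 could be tested, and 3 of them were lower in KO and none higher (median -0.19, all genes 0.02), beside 17.2% of all genes lower and 5.84% higher. Cmtm2a and Cmtm2b, neighbouring genes for membrane proteins needed for ADAM3 on sperm, went from 64.2 ± 32.8 to 2.66 ± 0.227 and from 51.3 ± 27.6 to 2.30 ± 0.804 (SD, n = 3). Their log2 differences were -4.23 ± 0.35 and -4.12 ± 0.40 (SE, adjusted p = 0.00419 for both). Lypd4 went from 42.4 ± 17.6 to 7.93 ± 0.875 (-2.27 ± 0.28, adjusted p = 0.00585). In spermatocytes the same 3 of 8 tested fell, with log2 differences of -6.55, -5.92 and -3.65 (adjusted p = 0.00011, 0.000162 and 0.000308), beside 25.4% of all genes lower. Cmtm2a entered that test through Het alone. Others of the list stayed high in KO: Tex101 was at 250 ± 10.3 and 219 ± 13.2 in P18 testis and Ly6k at 117 ± 7.03 and 104 ± 4.23, without passing (adjusted p = 0.0767 and 0.122).

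Other ADAM genes gave little to compare. Of 14 further ADAM genes, apart from the widely expressed ones, 1 reached the filter in P18 testis and spermatocytes. It did so through the Het libraries alone, so that only a fall could be called. This was Adam30, which went from 4.39 ± 2.57 to 0.336 ± 0.0597 and from 6.26 ± 2.95 to 0.43 ± 0.163 (SD, n = 3, adjusted p = 0.00858 and 0.000671). Of 12 widely expressed ADAM genes, 5 were tested in P18 testis and 2 rose, Adam9 and Adam10 (0.26 ± 0.06, SE, adjusted p = 0.0261), beside 5.84% of all genes. Of 6 tested in spermatocytes, Adam10 (0.46 ± 0.11, adjusted p = 0.0184) and Adam15 (0.68 ± 0.14, adjusted p = 0.00842) rose, beside 9.33% of all genes. No list member fell there. The 2 rises in testis became none without Het replicate 2 or without KO replicate 2 or 3, 1 without KO replicate 1, 4 with values as deposited and 5 by voom. In spermatocytes 1 rise was left without KO replicate 3, and there were 4 with values as deposited or 1 fit over 18 libraries.

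Genes with a pattern like that of Adam3 were sought among 11238 protein-coding genes with the same gene length in all 18 libraries. Adam1a and Adam2 were thus outside the search. The most alike were found by Pearson's r of log2(level + 0.5) over the 18 libraries, which fall into clusters by group. They were Tex22 (r = 0.9976), Ppp3r2 (0.9973), Aqp9 (0.997), Pom121l2 (0.9969) and 1700017D01Rik (0.9969). Ppp3r2, the testis form of the calcineurin regulatory subunit, was at 28.5 ± 15.5 in Het and 0.564 ± 0.175 in KO testis at P18 (SD, n = 3). For Clgn they were Hsf5 (0.9983), Cers3 (0.9938), Stk33 (0.9938), Kctd19 (0.9936) and 4933416C03Rik (0.993). Hsf5, a heat shock factor of spermatocytes, was at 35 ± 9.78 in Het and 10.5 ± 0.751 in KO testis at P18. These coefficients describe 18 libraries that share the same depth and composition differences between groups.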

How the data were processed

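RNA of 18 libraries was analysed from the authors' deposited tables of RPKM (P14 testis, P18 spermatocytes) and FPKM (P18 testis), 1 value per gene symbol. Per the submitters' processing notes, the tools were STAR 2.6.1a, featureCounts, CASAVA 1.9 and edgeR 3.28.1, with no role given for each, and the build was GRCm38. The strand setting and the handling of reads shared between genes are not given in the sources used here.

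Low values multiplied by GENCODE gene length were whole multiples of 1 read for 91.52% to 98.85% of them (within 0.02 reads), which gave the reads and depth of each library. These reads set the scaling and 1 alternative (voom). Since the tables hold normalized values, no count model was the main test. Libraries were rescaled with TMM factors (trims of 30% and 5%). Genes reaching a value of 1 in 3 or more libraries were tested with limma 3.58.1 in R 4.3.3 on log2(value + 0.5), with trend and robust moderation, two-sided, with Benjamini-Hochberg adjustment over all genes tested and a threshold of 0.05. KO and Het were compared within each set in a fit of its 6 libraries, and all other comparisons used 12. Age comparisons (P18 against P14 within a genotype) used only genes with the same length in all 18 libraries, which departs from the planned filter. The search for genes most like Adam3 and Clgn had this limit too. The genotype by age interaction did not have this limit. Levels printed per library use the scaling of the fit within that set. Fold changes on the log2(value + 0.5) scale understate those of low genes. The fit was tested on simulated data.

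Alternatives were pseudocounts of 0.1 and 1, no filter or a value of 5, values as deposited, median-of-ratios scaling, voom, 1 fit over 18 libraries, the replicate number as a block, each library left out in turn and, chosen after seeing the data, all genes in the age comparisons. The 446 older symbols were renamed. No library was left out of the main results, and no replicate was a copy of another. Named genes were the 10 members, Zfp541, Canx, Calr, Pdia3, P4hb and Adam9, up to 3 rises and 3 falls of each gene list, and the 5 most like Adam3 and Clgn. Uggt1, Ganab, Tex101, Ly6k and the neighbouring genes stand outside that rule and were named after their values were seen. The members and lists were chosen with earlier results of these data known. Analyses used Python 3.11.15, numpy 2.4.6, pandas 2.3.3, Biopython 1.88 and matplotlib 3.10.9.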

Additional observations from a re-analysis of the deposited data

Results flagged for a closer look

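The genotype difference in testis was larger at P18 than at P14 by a test of the interaction itself for Adam1b (-2.95), Adam3 (-4.48), Adam18 (-3.29) and Adam32 (-3.02, all on the log2(level + 0.5) scale). Leaving out 1 library at a time gave -3.27 to -2.66, -4.89 to -4.10, -3.69 to -2.94 and -3.42 to -2.65 in that order. By voom on recovered reads the values were -3.80, -3.44, -1.40 and -2.73, and none passed. Adam3 and Adam18 entered the test through the P18 Het libraries alone, which fixed the direction of theirs.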

How the results depend on the processing

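The 7 falls in P18 testis and in spermatocytes kept direction and call in all 15 alternatives of each, with Adam3 between -5.56 and -4.75 and between -6.58 and -5.81 when 1 library was left out. With values as deposited, which moved the median of all genes from 0.025 to 0.12 in testis and from -0.05 to 0.168 in spermatocytes, 1 member (Calr3) was higher in each set. In spermatocytes it was also higher with 1 fit over 18 libraries (1 member), and leaving out 1 library gave 0 to 1. At P14 leaving out 1 library gave 0 to 1 lower members (Adam5, tested only through Het). The age interaction had 4 lower members, 0 by voom, and 4 to 6 without 1 library. For P18 against P14 in KO, 5 members were higher (Adam3 and Adam18, tested only through Het, among them), but 3 with a pseudocount of 1, 3 without a filter, 2 by voom, 3 with 1 fit over 18 libraries and 3 to 5 without 1 library. The 1 lower member became 0 with a pseudocount of 1, 0 without a filter, 0 by voom, 0 with 1 fit and 0 to 1 without 1 library. For spermatocytes against testis in Het, 4 members were higher, 2 without a filter, 2 as deposited and 1 to 5 without 1 library. The cause of these changes was not tested.

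Signs turned only for small differences that had not passed. As deposited they were 0.143 (Adam1a) and 0.122 (Canx) for spermatocytes, 0.146 for Calr3 in the fraction interaction, 0.008 for Calr3 with age in Het and -0.002 for Calr3 between fractions in Het. The Calr3 fraction interaction was also 0.005 (pseudocount 1), 0.08 (median-of-ratios scaling) and 0.118 (1 fit over 18 libraries). Adam1a between fractions in KO was 0.166 (median-of-ratios) and 0.1 (1 fit), and Calr in testis -0.015 (1 fit). Without 1 library, the ranges were -0.095 to 0.207 (Calr3, P14), -0.062 to 0.043 (Adam9, P14), -0.046 to 0.045 (Calr, P18 testis), -0.018 to 0.063 (Pdia3, P18 testis), -0.178 to 0.004 (Canx, spermatocytes), -0.605 to 0.063 (Adam1b) and -0.104 to 0.176 (Calr3) in the fraction interaction, -0.257 to 0.041 (Calr3, age in Het), and between fractions in KO -0.086 to 0.1 (Adam1a), -0.018 to 0.39 (Adam2) and -0.134 to 0.235 (Adam32).

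Same-numbered Het and KO libraries had correlated deviations of 0.084 to 0.104 at P14, -0.028 to 0.025 in P18 testis and 0.054 to 0.242 in spermatocytes. For differently numbered libraries the values were -0.096 to 0.021, -0.051 to 0.063 and -0.161 to 0.032. Same-numbered values were thus above the others at P14 and in spermatocytes, but not in P18 testis. The numbers were not taken as pairs. With the replicate number as a block, 1 member (Adam5) was lower in the fraction interaction, 1 (Adam5) between fractions in KO, and 3 were higher with age in KO. Levels resting on few reads (Pdilt, and Adam3 and Adam18 in KO) are limited by depth.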
